A study of Mus musculus with 2 samples.

Results

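The genes described here are 9 members of the TGF-beta pathway, *Tgfb1*, *Tgfb2*, *Tgfb3*, *Tgfbr1*, *Tgfbr2*, *Tgfbr3*, *Smad2*, *Smad3* and *Smad7*, found by symbol among the 32285 genes of the table. No measured value served as a filter, but the members were chosen with earlier results of these data known. They were followed across the cell types of the mouse testis at E14.5, in RNA and in the chromatin at their transcription starts. The testes came from embryos of a cross between *Nr5a1-cre* and *Rosa-tdTomato* mice, so that Cre, which is driven by the steroidogenic factor gene *Nr5a1*, switches on a red reporter in gonadal somatic lineages. Whole testes had been frozen, the sources used here do not give the number of embryos, and no other genotype was analysed. 1 RNA library and 1 ATAC library were made from the same nuclei, so there were no replicates and no test was possible, and every interval is a 95% interval for counting error only.

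TGF-beta ligands are secreted in a latent form that is held by latency proteins in the matrix and released by integrins, proteases and other activators. The active ligand binds the type 2 receptor TGFBR2, which recruits and phosphorylates the type 1 receptor TGFBR1, and TGFBR1 then phosphorylates SMAD2 and SMAD3, which enter the nucleus with SMAD4. TGFBR3, also called betaglycan, is a co-receptor that presents ligand, TGF-beta 2 above all, and also binds inhibin, whereas SMAD7 is an inhibitor induced by the pathway that blocks the type 1 receptor. In the fetal testis this family has been studied in germ cells, in steroidogenic cells and in the contractile cells around the cords.

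From 9833 barcodes, 7197 nuclei were kept, with a median of 7949 unique RNA molecules (UMIs) and 4477 ATAC fragments each. Clusters were named from marker genes. The 9 members, a list of 40 further pathway genes and the peaks within 50 kb of a member gene were held out of the clustering. Other peaks near the 40 pathway genes were kept in it. The classes were progenitor-like (2296 nuclei), an unnamed cycling interstitial cluster (970), germ-like (966), Sertoli-like (844), Leydig-like (797), surface epithelium-like (565), mesonephric mesenchyme-like (395), endothelial-like (102), supporting-like (83), pericyte-like (69) and immune-like (68). A further 42 erythroid-like nuclei were below the minimum of 50 and are given apart. All 6 markers of the Leydig, Sertoli, germ, endothelial and immune lists and all 7 of the pericyte list were highest in their own class, against 5 of 6 for surface epithelium, 4 of 6 for progenitors, 3 of 4 for supporting-like cells and 3 of 5 for mesonephric mesenchyme. The progenitor markers *Tcf21* and *Wnt5a* were highest in the surface epithelium-like class. The cycling cluster had 538 counts per 1000000 UMIs (CPM) of the proliferation gene *Mki67*, against 97.7 in the progenitor-like class, and it stayed unnamed because its contractile and progenitor marker scores were too close. A few very deep nuclei, those over 50000 UMIs, held 50.7% of the UMIs of the endothelial-like class and 37.5% of the immune-like class, so values in these classes are also given without them.

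RNA levels are CPM of the summed nuclei of a class. Because long genes give more nuclear UMIs, levels were compared between classes for the same gene and never between genes. RNA that leaked from other cells, or nuclei captured together, can add UMIs to a class. A level for this was estimated from the germ, Sertoli and Leydig marker lists without *Nr5a1*, leaving out a class's own list. It came to between 20.5% of a gene's pooled level in mesonephric mesenchyme-like nuclei and 60.9% in endothelial-like nuclei. Leydig markers were thus counted as foreign in progenitor-like nuclei, so any expression of their own there would be included. Of the 99 member levels in the 11 classes, 8 lay at or below this free RNA level.

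In the mm10 gene models (GENCODE vM21), the ligand genes lay at chr7:25687002-25705077 (*Tgfb1*, plus strand), chr1:186622792-186705989 (*Tgfb2*, minus) and chr12:86056745-86079041 (*Tgfb3*, minus). The receptor genes lay at chr4:47353222-47414931 (*Tgfbr1*, plus), chr9:116084293-116175360 (*Tgfbr2*, minus) and chr5:107106570-107289629 (*Tgfbr3*, minus). The Smad genes lay at chr18:76241580-76310963 (*Smad2*, plus), chr9:63646767-63757994 (*Smad3*, minus) and chr18:75367529-75395935 (*Smad7*, plus).

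RNA of *Tgfbr2*, *Smad3* and *Tgfb2* was at least 2-fold apart between progenitor-like and Leydig-like nuclei in every setting tried. Of their promoter peaks, only that of *Tgfbr2* passed 1.5-fold in accessibility, and not in every setting. The promoters of these 3 genes are therefore printed. Each is the 250 bases before the RefSeq start (GRCm38.p6), 5′ to 3′ on the gene's strand. RefSeq promoters were matched for 5 of the 9 members, these and those of *Tgfb1* and *Tgfbr1*. *Tgfb3*, *Tgfbr3*, *Smad2* and *Smad7* had no entry. The last sequence is the central 300 bases of a distal peak that was more open in progenitor-like nuclei, intergenic and past the end of *Tgfb1*. Capitals mark matches, on either strand, to CAGAC (a SMAD box), GTCTAGAC (the SMAD palindrome), TGANTCA (the AP-1 motif), GGGCGG (a GC box) or AGGTCA (a nuclear receptor half-site), and none of these motifs contains another.

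*Tgfbr2* promoter, chr9:116175364-116175613, minus strand: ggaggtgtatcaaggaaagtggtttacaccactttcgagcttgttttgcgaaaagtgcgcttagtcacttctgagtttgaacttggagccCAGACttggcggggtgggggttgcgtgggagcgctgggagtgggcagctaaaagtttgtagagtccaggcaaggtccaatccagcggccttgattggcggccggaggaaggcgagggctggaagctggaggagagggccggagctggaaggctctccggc
*Smad3* promoter, chr9:63757995-63758244, minus strand: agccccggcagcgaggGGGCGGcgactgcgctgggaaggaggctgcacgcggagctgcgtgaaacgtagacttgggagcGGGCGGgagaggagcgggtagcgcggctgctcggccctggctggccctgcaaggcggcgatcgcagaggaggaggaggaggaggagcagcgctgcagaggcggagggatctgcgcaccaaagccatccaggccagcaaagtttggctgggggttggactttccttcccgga
*Tgfb2* promoter, chr1:186705990-186706239, minus strand: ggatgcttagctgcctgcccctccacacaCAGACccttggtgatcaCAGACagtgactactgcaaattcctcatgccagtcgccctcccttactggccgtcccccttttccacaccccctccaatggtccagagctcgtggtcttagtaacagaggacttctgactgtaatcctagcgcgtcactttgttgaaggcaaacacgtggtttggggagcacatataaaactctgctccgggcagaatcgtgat
*Tgfb1* distal peak, chr7:25707724-25708023, plus strand: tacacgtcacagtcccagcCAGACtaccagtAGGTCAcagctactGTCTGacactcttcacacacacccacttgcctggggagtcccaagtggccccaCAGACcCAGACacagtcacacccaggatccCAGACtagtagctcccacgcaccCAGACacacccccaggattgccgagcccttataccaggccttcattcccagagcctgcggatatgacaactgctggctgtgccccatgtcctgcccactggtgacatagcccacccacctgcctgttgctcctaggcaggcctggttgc

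The *Tgfb2* promoter held CAGAC at 221 and 204 bases before the start and the *Tgfbr2* promoter held it at 160 bases, and 42.2% of all 32851 RefSeq promoters of this length held it at least once. The *Smad3* promoter held GGGCGG at 234 and 171 bases before the start, as did 32.7% of all promoters somewhere in the window. None of the 3 held the palindrome, the AP-1 motif or AGGTCA, which 0.167%, 6.75% and 14.0% of promoters held. GC content was 53.6% at *Tgfb2*, 58.4% at *Tgfbr2* and 69.2% at *Smad3*, and it was 74.8% and 75.2% at *Tgfbr1* and *Tgfb1*, which carried GGGCGG 2 and 5 times. The *Tgfb1* distal sequence held CAGAC 6 times and AGGTCA 1 time. Of the 109183 peaks, 55.0% held CAGAC at least once in their central 300 bases, and 22.5% held AGGTCA. The share of peaks with as many as 6 was not counted. Other member peaks more open in progenitor-like nuclei, those of *Smad7* not read, held CAGAC 0 to 3 times, so the printed one held the most. These matches are descriptions of the letters only.

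Among the ligands, *Tgfb2* RNA was highest in supporting-like nuclei, at 527 CPM (95% interval, 484 to 573; 547 UMIs). It was 2.04 times (1.83 to 2.28) the level of the next class, mesonephric mesenchyme-like nuclei at 258 CPM. Surface epithelium-like (255 CPM) and pericyte-like nuclei (252 CPM) could not be separated from mesonephric mesenchyme-like nuclei within counting error. Progenitor-like nuclei had 203 CPM and the cycling interstitial cluster 201 CPM, again not separated. Endothelial-like nuclei followed at 155 CPM, immune-like at 116 CPM and Leydig-like at 69.1 CPM (63.7 to 74.8). The lowest levels were 46.0 CPM in Sertoli-like and 41.8 CPM in germ-like nuclei, the latter below the free RNA level, and the range from supporting-like to germ-like was 12.6-fold (11.3 to 14.1). *Tgfb2* therefore stood highest in supporting-like nuclei, next in mesenchymal and surface cells, and low in the cells inside the cords and in Leydig-like nuclei. Levels within the mesenchymal and surface classes differed at a finer resolution, as given below. Without the nuclei that Scrublet's automatic threshold calls doublets, Sertoli-like and germ-like nuclei had 12.8 and 16.4 CPM and supporting-like nuclei, 30.1% of which lay over it, 777 CPM. Immune-like nuclei then had 70.1 CPM, from 16 UMIs, and Leydig-like nuclei 49.5 CPM. With every nucleus thinned to 2000 UMIs, 59.0% of supporting-like nuclei had a *Tgfb2* UMI, against 27.9% in the progenitor-like class, 10.8% in the Leydig-like and 4.56% in the germ-like class. *Tgfb2* was the only 1 of the 7 members with at least 1000 UMIs whose highest class was at least 2-fold above the next, and 12.2% of all 8711 genes tested were. This call depended on the settings, as given in the closing section.

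*Tgfb1*, the ligand best known from blood and immune cells, was highest in immune-like nuclei, at 61.0 CPM (43.9 to 82.4; 42 UMIs). Endothelial-like nuclei had 37.5 CPM, 1.62 times (1.10 to 2.36) less than immune-like nuclei, and without the nuclei over 50000 UMIs the immune-like and endothelial-like levels were 88.2 and 55.1 CPM. Without the nuclei over the automatic doublet threshold they were 92.0 CPM (21 UMIs) and 86.0 CPM (42 UMIs), so the gap between them nearly closed. Pericyte-like nuclei had 22.9 CPM, mesonephric mesenchyme-like 15.8 CPM, progenitor-like 12.4 CPM, germ-like 12.1 CPM and the cycling cluster 10.2 CPM. The lowest were Sertoli-like (8.61 CPM), surface epithelium-like (7.43 CPM), Leydig-like (6.06 CPM) and supporting-like nuclei (5.78 CPM, 6 UMIs). With all nuclei kept, only the step from immune-like to endothelial-like nuclei was separated among the 10 steps between neighbours. Classes further apart in the order did differ. The endothelial-like interval (30.3 to 45.9 CPM) lay above the progenitor-like one (10.6 to 14.3), and that above the Leydig-like one (4.55 to 7.90). The 42 erythroid-like nuclei had 78.0 CPM (50.5 to 115; 25 UMIs).

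*Tgfb3* was highest in surface epithelium-like nuclei, at 45.3 CPM (39.9 to 51.3; 250 UMIs), 1.68 times (1.13 to 2.58) the level in supporting-like nuclei (27.0 CPM). With nuclei thinned to 2000 UMIs the supporting-like class was highest instead, and surface epithelium-like nuclei were highest in 11 of 12 settings. Pericyte-like nuclei had 21.5 CPM, immune-like 13.1 CPM, Sertoli-like 9.94 CPM, mesonephric mesenchyme-like 9.72 CPM, endothelial-like 8.39 CPM and progenitor-like 7.86 CPM. The cycling cluster had 6.56 CPM and germ-like nuclei 3.72 CPM. The lowest class was Leydig-like, with 2.24 CPM from 20 UMIs, so that the range was 20.2-fold (12.8 to 33.6). Without the nuclei over the automatic doublet threshold, Leydig-like nuclei had 1.40 CPM, from 8 UMIs, and surface epithelium-like nuclei 51.7 CPM. *Tgfb3* had the fewest UMIs of the 9 members in all, 725, and its germ-like and Leydig-like levels were both at or below free RNA.

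**Figure D1:**
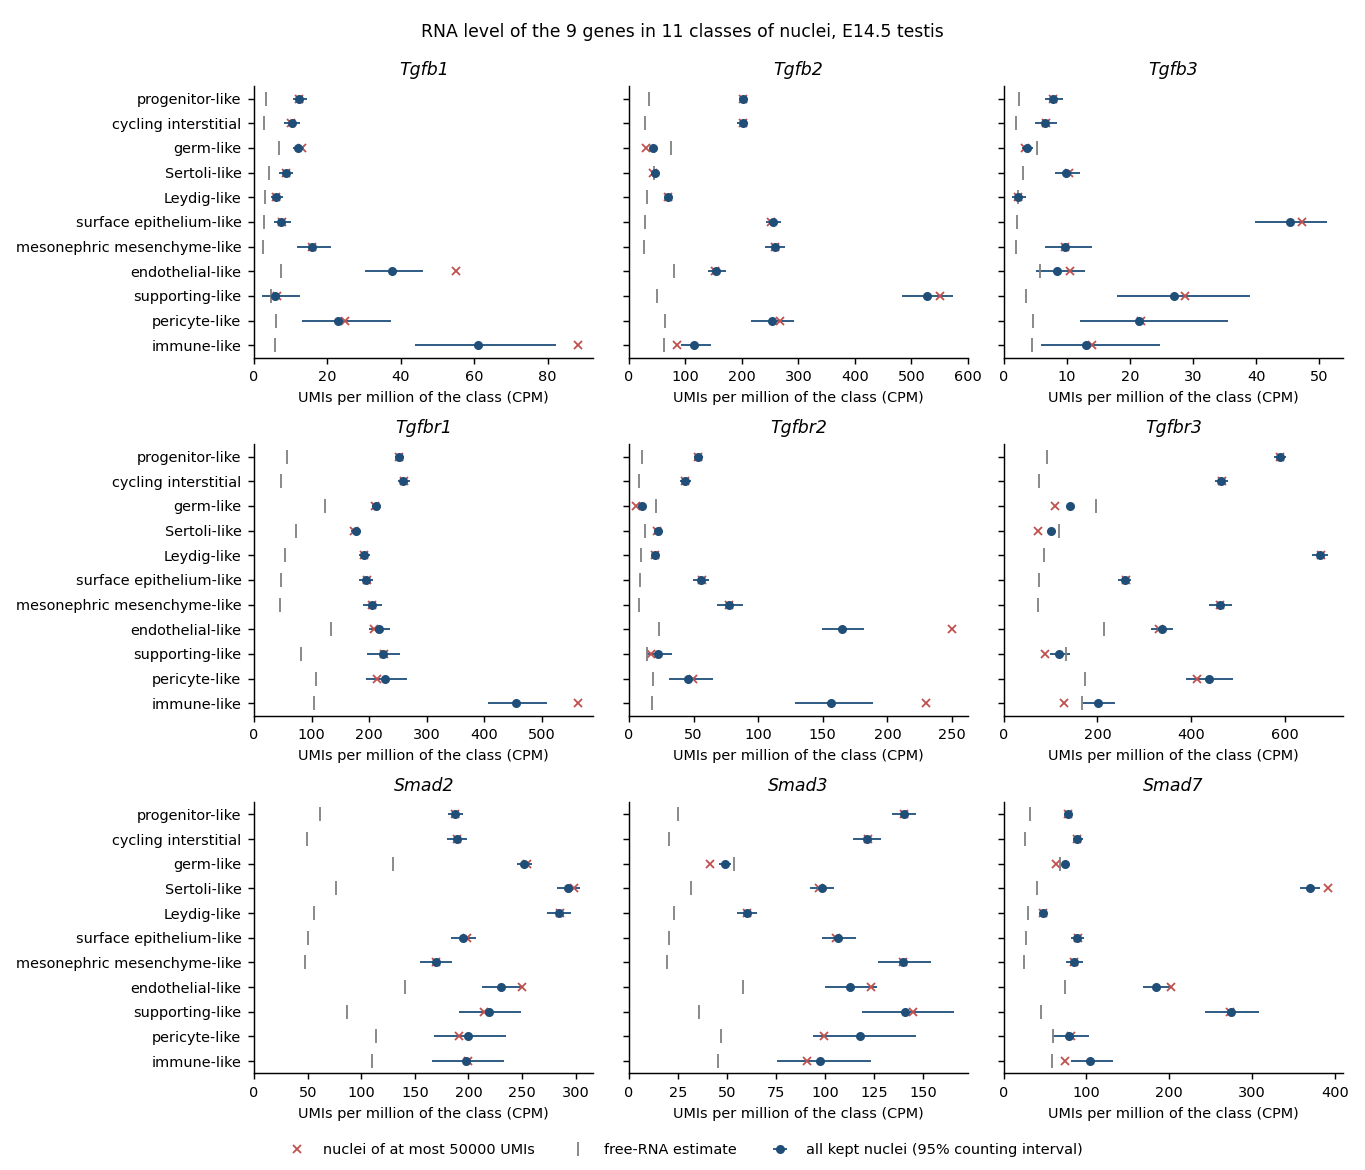
RNA level of each of the 9 members (x axis, CPM, each panel with its own scale) in the 11 classes of the testis (y axis). Dots are summed nuclei with 95% counting intervals, crosses leave out nuclei over 50000 UMIs and grey ticks are the free RNA estimate. *Tgfb2* stands out in supporting-like nuclei (527 CPM), *Tgfbr2* in endothelial-like (165 CPM) and immune-like nuclei (157 CPM), and *Smad7* in Sertoli-like nuclei (369.7 CPM).

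Among the receptors, *Tgfbr2*, the ligand-binding type 2 receptor, was highest in endothelial-like nuclei at 165 CPM (149 to 182) and in immune-like nuclei at 157 CPM (129 to 189), which were not separated from each other. Mesonephric mesenchyme-like nuclei followed at 77.5 CPM, and immune-like nuclei had 2.02 times (1.60 to 2.55) that level. Surface epithelium-like nuclei had 55.4 CPM, progenitor-like 53.8 CPM, pericyte-like 45.9 CPM and the cycling cluster 43.7 CPM. The step to surface epithelium-like nuclei was 1.40-fold (1.17 to 1.66), and a further step, of 1.95-fold (1.66 to 2.30), led from the cycling cluster down to Sertoli-like (22.4 CPM), supporting-like (22.2 CPM) and Leydig-like nuclei (20.4 CPM). Germ-like nuclei were lowest at 9.84 CPM, below free RNA, and the range was 16.8-fold (14.1 to 19.99). *Tgfbr2* RNA was thus graded from vessel and immune cells through the mesenchyme to Sertoli-like, supporting-like, Leydig-like and germ-like nuclei. Without the nuclei over 50000 UMIs, the endothelial-like and immune-like levels were 250.3 and 229.8 CPM. Of the endothelial-like nuclei 41.2%, and of the immune-like nuclei 38.2%, lay over Scrublet's automatic doublet threshold, and without those the levels were 389 and 319.9 CPM, beside 2.36 CPM in germ-like nuclei. Thinned to 2000 UMIs, 38.6% of endothelial-like and 35.4% of immune-like nuclei had a *Tgfbr2* UMI, against 10.3% in the progenitor-like class, 4.03% in the Leydig-like and 1.66% in the germ-like class.

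*Tgfbr1*, the type 1 receptor kinase, was far more even. Immune-like nuclei had 456 CPM, 1.76 times (1.56 to 1.97) the next class, and 564 CPM without the 2 of their 68 nuclei over 50000 UMIs. Without the nuclei over the automatic doublet threshold it was 709.9 CPM. The other 10 classes lay between 177 and 259.7 CPM, with all nuclei kept. In descending order these were the cycling cluster at 259.7, progenitor-like at 252, pericyte-like at 228, supporting-like at 224, endothelial-like at 218, germ-like at 212, mesonephric mesenchyme-like at 205, surface epithelium-like at 194, Leydig-like at 192 and Sertoli-like nuclei at 177 CPM. Only 2 of the 10 steps were separated, the first and the last, from Leydig-like to Sertoli-like nuclei.

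*Tgfbr3*, the co-receptor, was highest in Leydig-like nuclei at 675 CPM (6019 UMIs), 1.15 times (1.11 to 1.18) the progenitor-like level of 589 CPM. The cycling cluster (464 CPM), mesonephric mesenchyme-like (461 CPM) and pericyte-like nuclei (437 CPM) came next and were not separated. Endothelial-like nuclei had 337 CPM, surface epithelium-like 258 CPM and immune-like 200.3 CPM. Germ-like (141 CPM), supporting-like (119 CPM) and Sertoli-like nuclei (101 CPM) were at or below the free RNA level. Without the nuclei over the automatic doublet threshold, the levels were 48.2 CPM in immune-like, 78.6 CPM in germ-like, 19.4 CPM in supporting-like and 15.3 CPM in Sertoli-like nuclei. *Tgfbr3* was the only receptor whose highest class was Leydig-like, and this held in 12 of 12 alternative settings.

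Detection of both chains of the signalling receptor in the same nucleus depended on depth. After thinning to 2000 UMIs, *Tgfbr1* and *Tgfbr2* UMIs were found together in 13 of 65 immune-like nuclei (11.1% to 31.8%), 12.9% of endothelial-like (7.04 to 21.0), 7.11% of mesonephric mesenchyme-like, 4.05% of progenitor-like (3.27 to 4.95), 0.622% of germ-like and 1.13% of Leydig-like nuclei (0.520 to 2.14). The progenitor-like interval lay above the Leydig-like one. The share expected if both genes were detected independently was 3.59% in progenitor-like nuclei and 21.2% in immune-like nuclei, inside those classes' intervals. Unthinned, the shares were 41.2% in immune-like, 75.5% in endothelial-like, 14.6% in Leydig-like and 18.9% in progenitor-like nuclei.

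Among the Smads, the receptor-activated *Smad2* varied least, by 1.73-fold (1.58 to 1.91) in all. Sertoli-like (293 CPM) and Leydig-like nuclei (285 CPM) were highest and not separated. Germ-like nuclei had 252 CPM, endothelial-like 231, supporting-like 219, pericyte-like 199, immune-like 197 and surface epithelium-like 195 CPM. The cycling cluster had 189 CPM, progenitor-like nuclei 188 CPM and mesonephric mesenchyme-like nuclei 169 CPM.

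*Smad3* is the other receptor-activated Smad. Supporting-like (141 CPM), progenitor-like (139.9 CPM) and mesonephric mesenchyme-like nuclei (139.8 CPM) were highest and not separated. The cycling cluster had 121 CPM, pericyte-like 118, endothelial-like 113, surface epithelium-like 107, Sertoli-like 98.3 and immune-like nuclei 97.2 CPM. Leydig-like nuclei, at 60.0 CPM (535 UMIs), were 1.62 times (1.24 to 2.09) below immune-like nuclei. Germ-like nuclei were lowest, at 48.7 CPM and below free RNA, and the range was 2.89-fold (2.41 to 3.44). Over the 11 classes, the log levels of *Smad2* and *Smad3* had a Pearson r of -0.67. These points share 1 library and differ in depth and in the number of nuclei, and the levels include free RNA. With free RNA subtracted, endothelial-like and immune-like nuclei were low for both, at 89.8 and 87.6 CPM of *Smad2* and 54.6 and 52.1 CPM of *Smad3*.

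*Smad7*, the inhibitory Smad, was highest in Sertoli-like nuclei at 369.7 CPM (358 to 382), 1.35 times (1.19 to 1.52) the supporting-like level of 275 CPM. Endothelial-like nuclei had 184 CPM and immune-like nuclei 104 CPM, but the immune-like level was 13.1 CPM, from 3 UMIs, without the nuclei over the automatic doublet threshold. The cycling cluster (89.1 CPM), surface epithelium-like (88.6), mesonephric mesenchyme-like (84.8), pericyte-like (78.9), progenitor-like (78.2) and germ-like nuclei (73.9 CPM) followed, with no separated step between neighbours. Across several steps levels did differ, since the cycling interval (83.1 to 95.4) lay above the progenitor-like (73.7 to 82.9) and germ-like ones (70.1 to 77.8). With free RNA subtracted, the cycling cluster had 63.0 CPM and pericyte-like nuclei 19.2 CPM. With all nuclei kept, Leydig-like nuclei were lowest at 47.9 CPM (43.5 to 52.7; 40.6 CPM without those nuclei), 7.72-fold (6.98 to 8.55) below Sertoli-like nuclei. With free RNA subtracted, germ-like nuclei were lowest at 5.47 CPM, beside 18.4 CPM in Leydig-like and 329 CPM in Sertoli-like nuclei. Sertoli-like nuclei remained highest for *Smad7* in 12 of 12 alternative settings.

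Progenitor-like nuclei include the interstitial cells from which fetal Leydig cells arise, so the members were compared between progenitor-like and Leydig-like nuclei. At least 2-fold differences were found for 5 of the 9 members, all higher in progenitor-like nuclei, and 22.6% of the 11458 genes tested differed as much in either direction. The median log2 ratio was 0.92 over the members and -0.02 over all genes tested. The members were chosen with earlier results of these data known, so this is not independent evidence of a direction. All 3 ligands were among the 5. *Tgfb2* had 2966 UMIs in the progenitor-like class (203 CPM) against 616 in the Leydig-like class (69.1 CPM), and the ratio was 2.93 (2.69 to 3.21). *Tgfb3* had 115 and 20 UMIs, a ratio of 3.50 (2.17 to 5.95). *Tgfb1* had 181 and 54 UMIs, a ratio of 2.04 (1.4997 to 2.82), whose interval held 2, and it was below 2-fold with no doublet removal (1.89), with Scrublet's automatic threshold (1.87), with classes from ATAC alone (1.75), with the cycling cluster counted as progenitor-like (1.90) and with the mean of per-nucleus CPM (1.96). With a minimum 5 times higher it was not tested.

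Of the receptors, *Tgfbr2* had 787 UMIs in the progenitor-like class against 182 in the Leydig-like class, and its ratio was 2.64 (2.24 to 3.11). *Tgfbr1* differed by 1.32-fold (1.24 to 1.39) in the same direction, and *Tgfbr3* was lower in progenitor-like nuclei, with a ratio of 0.873 (0.844 to 0.902). *Smad3* had a ratio of 2.33 (2.12 to 2.57), from 2047 and 535 UMIs, and *Smad7* one of 1.63 (1.46 to 1.83), which was past 2-fold with Scrublet's automatic threshold (2.04) and with free RNA subtracted (2.497). *Smad2* went the other way, at 0.660 (0.625 to 0.696). The ligands, both signalling receptors, *Smad3* and *Smad7* were thus lower in Leydig-like nuclei, where *Smad2* and the co-receptor were higher.

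Other cells' RNA moved with these values. The 6 progenitor markers summed to 2126 CPM in the progenitor-like class against 623 CPM in the Leydig-like class, and 20.7% of Leydig-like against 6.53% of progenitor-like nuclei lay over the automatic doublet threshold. Without those nuclei the progenitor markers summed to 378 CPM in Leydig-like nuclei, and the ratios were 4.06 for *Tgfb2*, 5.56 for *Tgfb3*, 3.71 for *Tgfbr2*, 2.71 for *Smad3* and 2.05 for *Tgfb1*. These 5 ratios were thus at least as large without them. The automatic threshold marked 19.8% of the nuclei that passed the filters, against the 6.13% removed by rank. Leaving out nuclei of mixed profile can by itself raise such ratios, so no conclusion is drawn from the rise. The 6 Leydig markers summed to 4638 CPM in Leydig-like and 401 CPM in progenitor-like nuclei.

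**Figure D2:**
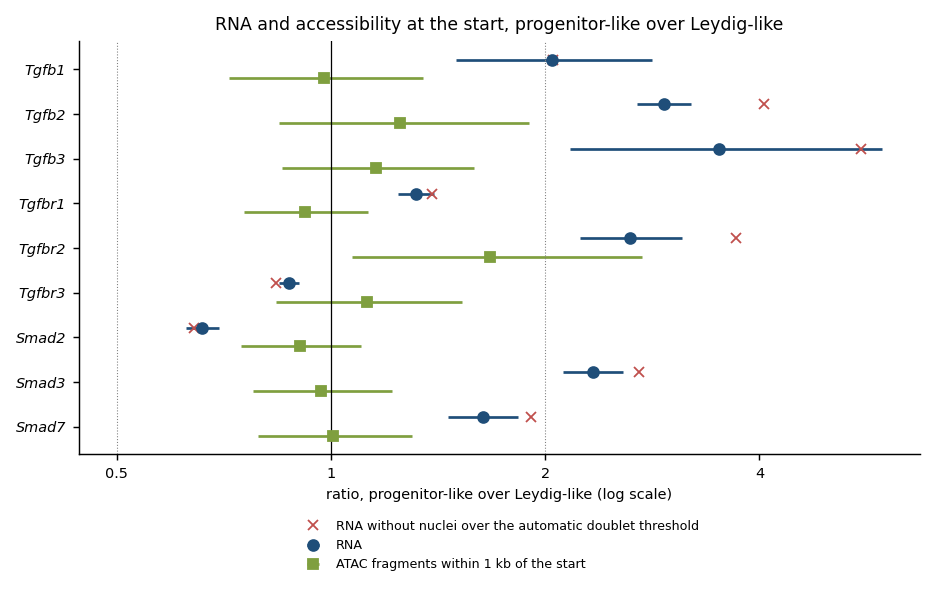
Ratio of progenitor-like over Leydig-like nuclei (x axis, log scale) for the 9 members (y axis), in RNA (dots), in RNA without nuclei over the automatic doublet threshold (crosses) and in ATAC fragments within 1 kb of the start (squares), with 95% counting intervals. RNA ratios run from 0.660 at *Smad2* to 3.50 at *Tgfb3*, whereas the ATAC ratios stay between 0.904 and 1.67.

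The progenitor-like class holds a contractile part that separates at a finer resolution of 0.6. There, 1010 contractile-like nuclei, of which 771 came from the progenitor-like class and 237 from the cycling cluster, stood beside 1569 non-cycling and 741 cycling progenitor-like nuclei. *Tgfb2* had 312 CPM in contractile-like and 153 CPM in non-cycling progenitor-like nuclei, a ratio of 2.03 (1.90 to 2.17). It was the 1 member of 9 past 2-fold, and 5.49% of 10395 genes were in either direction. *Tgfb3* had a ratio of 1.64 (1.15 to 2.34) from 66 UMIs in each, *Smad7* 1.33 (1.196 to 1.48) and *Tgfbr1* 1.21 (1.13 to 1.28). *Tgfbr3* was lower in contractile-like nuclei, at 0.848 (0.812 to 0.885). *Tgfbr2* (1.02), *Smad3* (0.9995), *Smad2* (1.07) and *Tgfb1* (0.863) differed little, with intervals that held 1 for *Tgfbr2*, *Smad3* and *Tgfb1*. Of the pathway list, *Ltbp1*, which anchors latent TGF-beta in the matrix, had 357 CPM against 48.9 CPM, a ratio of 7.31 (6.64 to 8.06). It was 1 of 8 genes of latency and activation with at least 100 UMIs, and the others lay between 0.685 (*Lrrc32*) and 1.42 (*Thbs1*), with *Itgb8* at 0.911. The matrix genes *Postn* and *Tgfbi*, both known TGF-beta targets, had ratios of 2.95 and 2.25. These were 2 of the 7 targets with at least 100 UMIs, and the others were below 2-fold, with *Fn1* at 0.928, *Col1a2* at 1.12, *Col3a1* at 1.17, *Col1a1* at 1.67 and *Snai2* at 1.81.

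Cycling progenitor-like nuclei had less RNA of 2 of the 3 receptors than the non-cycling ones, with ratios of 0.745 (0.646 to 0.858) for *Tgfbr2* and 0.809 (0.777 to 0.843) for *Tgfbr3*. *Tgfb2* was slightly higher in them, at 1.15 (1.07 to 1.24), and so was the third receptor gene, *Tgfbr1*, at 1.14 (1.07 to 1.21). *Ltbp1* was again higher, at 3.50 (3.16 to 3.88). At this resolution the Sertoli-like nuclei fell into a pair of clusters with 416 and 315 CPM of *Smad7* and 48.3 and 164 CPM of *Tgfbr3*. The second cluster was the deeper, with a median of 14107 against 8807 UMIs. For *Tgfbr3* the free RNA level of the whole Sertoli-like class was 117 CPM. Without the nuclei over the automatic doublet threshold that class had 15.3 CPM of it. The surface epithelium-like nuclei also fell into a pair of clusters, of 475 and 88 nuclei. These had 279 and 135 CPM of *Tgfb2* and 40.7 and 68.6 CPM of *Tgfb3*.

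**Figure D3:**
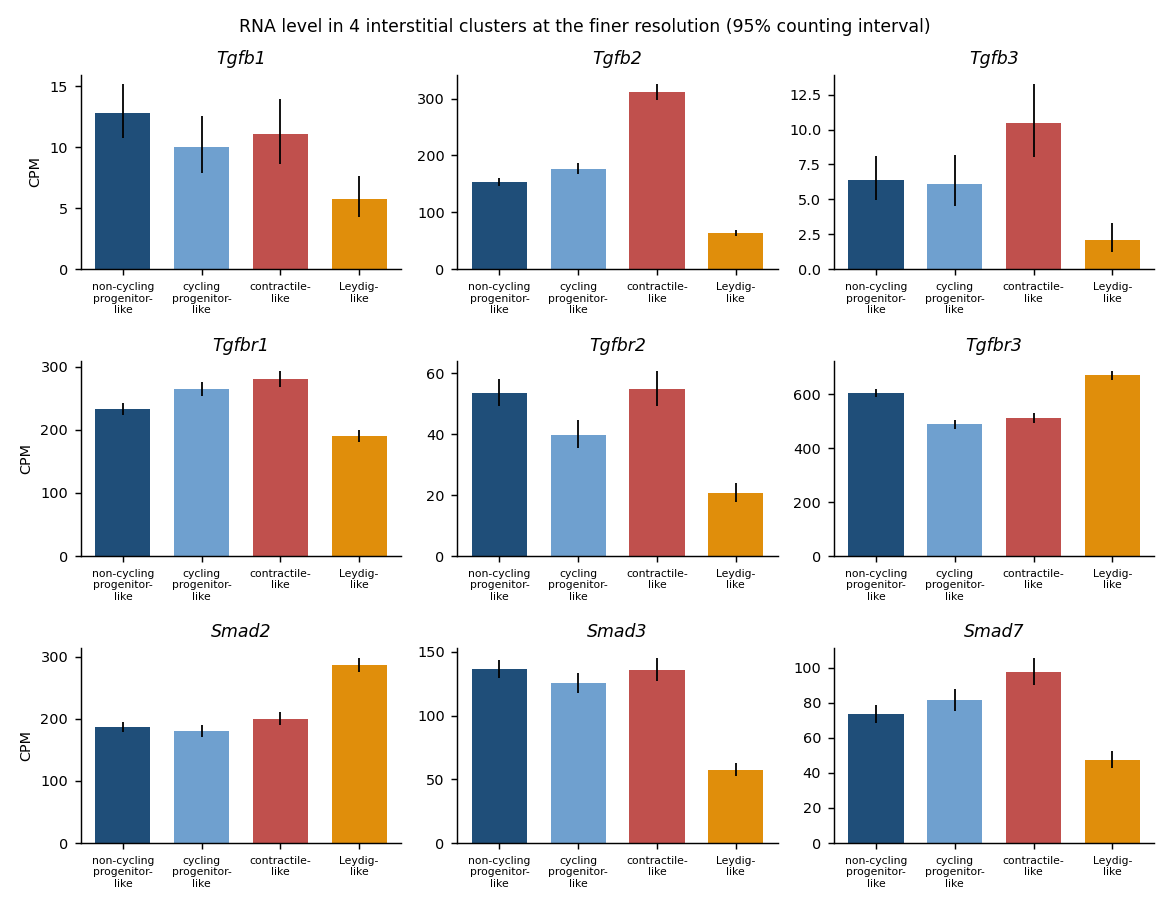
RNA level (y axis, CPM, from 0) of the members in 4 interstitial clusters at resolution 0.6, as bars with 95% counting intervals. *Tgfb2* is the member that differs most between contractile-like (312 CPM) and non-cycling progenitor-like nuclei (153 CPM).

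The other pathway genes were compared in the same way. Of the 40 genes listed, 31 had the 100 UMIs needed over both classes, and 15 of these differed at least 2-fold between progenitor-like and Leydig-like nuclei, 14 of them higher in progenitor-like nuclei, against the 22.6% of all genes tested. Their median log2 ratio was 0.62. The list was chosen with earlier results of these data known, so it is not independent evidence of a direction.

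Genes of latency and activation differed in 5 of 8 cases, all higher in progenitor-like nuclei. They were *Itgb8* (ratio 6.56), the beta subunit of an integrin that activates TGF-beta, *Lrrc32* (4.97), which displays latent ligand on cell surfaces, the latent-binding proteins *Ltbp4* (3.69) and *Ltbp1* (2.80), and the activator *Thbs1* (3.63). *Itgb8* reached 1017 CPM in progenitor-like nuclei. Without the nuclei over the automatic doublet threshold its ratio was 33.4, that of *Ltbp1* 13.7, of *Lrrc32* 11.5, of *Thbs1* 7.07 and of *Ltbp4* 5.68. At the finer resolution, *Ltbp1* had 357 CPM in contractile-like but 48.9 CPM in non-cycling progenitor-like nuclei. Leydig-like nuclei had 40.0 CPM, so the *Ltbp1* difference was small for the non-cycling part. Free RNA levels of *Ltbp1* were 47.8 CPM in the progenitor-like and 43.8 CPM in the Leydig-like class. The non-cycling part was not compared without the nuclei over the automatic doublet threshold. *Ltbp1* was highest in supporting-like nuclei, at 1404 CPM, the class with the most *Tgfb2*. *Nrros*, the latency partner of microglia and macrophages, was at 190.1 CPM in immune-like nuclei.

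Other receptors and decoys differed in 2 of 3 cases, the co-receptor *Eng* (4.92, and 12.8 without those nuclei) and the pseudoreceptor *Bambi* (2.92). The third, *Acvrl1*, was lower in progenitor-like nuclei, at 0.672 (0.506 to 0.892), and at 0.588 without those nuclei. Smad partners and regulators differed in 3 of 13. The feedback inhibitor *Pmepa1* (4.56, and 11.7 without those nuclei) and the ubiquitin ligase *Nedd4l* (2.32) were higher in progenitor-like nuclei, and the corepressor *Skil* was the 1 gene of the list at least 2-fold higher in Leydig-like nuclei, with a ratio of 0.473. Others were higher there by less, such as *Tgif1* (0.552, 0.441 to 0.691) and *Usp15* (0.685, 0.652 to 0.721), and without the nuclei over the automatic doublet threshold *Tgif1* was at 0.471. The median log2 ratio of this group was 0.08, near that of all genes. Targets differed in 5 of 7, namely *Fn1* (3.79), *Col1a2* (3.03), *Snai2* (2.79), *Col3a1* (2.47) and *Col1a1* (2.01), and without those nuclei *Fn1* was at 6.42 and *Snai2* at 5.39. These encode matrix proteins and a mesenchymal transcription factor. *Postn* (1.29) and *Tgfbi* (1.41) were below 2-fold. Without the nuclei over the automatic doublet threshold they were at 2.23 (1.45 to 3.58) and 1.76, so that *Postn* passed it. At resolution 0.6, *Col1a1* had 213 CPM in non-cycling progenitor-like and 357 CPM in contractile-like nuclei, beside 119 CPM in Leydig-like nuclei at resolution 0.3. Of the targets with at least 1000 UMIs, 5 of 5 were highest in mesonephric mesenchyme-like nuclei, as were 4.03% of all genes with as many.

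Across all classes, 5 of 25 pathway genes tested had a highest class at least 2-fold above the next, against the 12.2% given above. *Ltbp1* (2.50) and *Ltbp3* (2.24) stood out in supporting-like, *Eng* (4.12) in endothelial-like, *Tgif1* (2.52) in Sertoli-like and *Postn* (2.92) in mesonephric mesenchyme-like nuclei.

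**Figure D4:**
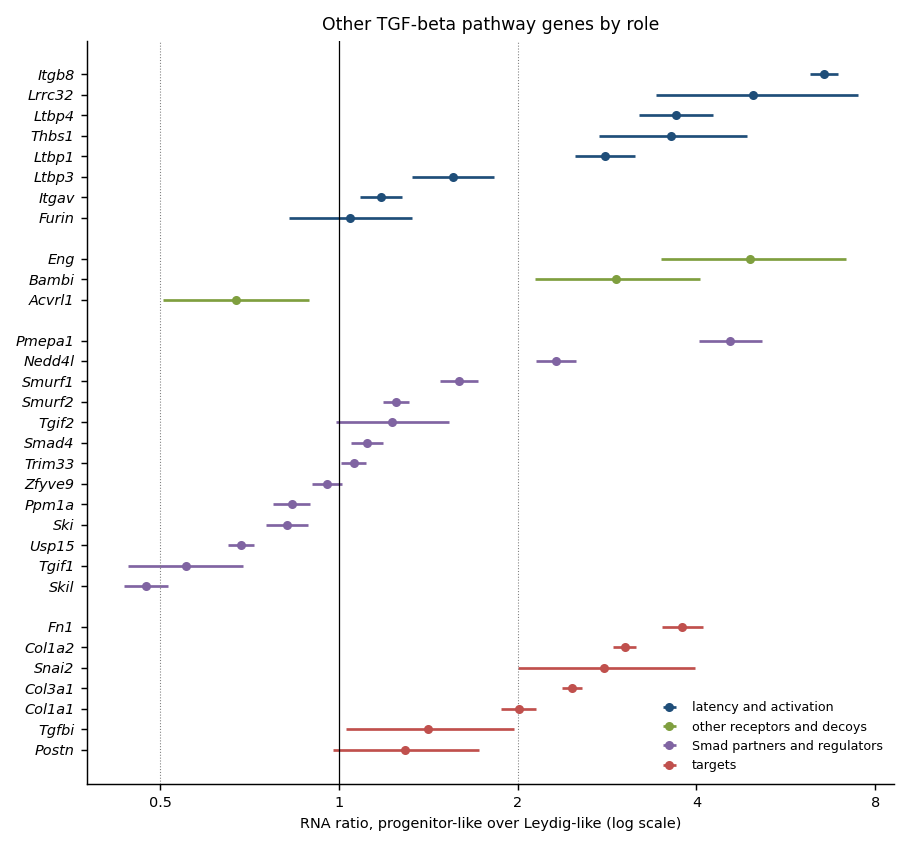
RNA ratio of progenitor-like over Leydig-like nuclei (x axis, log scale) for the 31 pathway genes tested, by role, with 95% counting intervals. Genes of latency and activation, receptors and targets lie mostly to the right, up to 6.56 at *Itgb8*, whereas the 13 Smad partners and regulators centre near 1.

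The genes whose log levels over the 11 classes were most like each member were taken from 8726 other genes with at least 1000 UMIs, and their r, on the log2(CPM + 1) scale, is given as a description. For the ligands these were *Gnai2* (r = 0.95), *Fli1* and *St8sia4* for *Tgfb1*, *Eml1* (0.96), *Rbms3* and *Ccdc80* for *Tgfb2*, and *Tmem165* (0.90), *Lrrc7* and *Gpt2* for *Tgfb3*. For the receptors they were *Sirpa* (0.92), *Ubb* and *Rassf4* for *Tgfbr1*, *Disc1* (0.96), *Crybg3* and *Nin* for *Tgfbr2*, and *Egfr* (0.95), *Cped1* and *Itga9* for *Tgfbr3*. For the Smads they were *Nmt2* (0.97), *Pak3* and *R3hdm2* for *Smad2*, *Sufu* (0.98), *Etl4* and *3010001F23Rik* for *Smad3*, and *Cxxc5* (0.96), *Flvcr2* and *Dsp* for *Smad7*. Between members, the highest r was 0.81, for *Tgfb2* and *Smad3*, and the lowest was -0.73, for *Tgfb2* with *Smad2* and for *Tgfbr3* with *Smad7*.

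At the chromatin level, 8 of the 9 members had 1 peak within 1 kb of their start. No peak of the table used lay within 1 kb of the *Smad7* start, although fragments gathered there, so fragments within 1 kb of every start were also counted, a choice made after the data were seen. Of the 8 promoter peaks, 1 differed at least 1.5-fold in cuts between progenitor-like and Leydig-like nuclei. Of the 13965 promoters tested 13.5% did, so the count over the members was near the share over all promoters. The 1 member past 1.5-fold was *Tgfbr2*, with 199 cuts in progenitor-like nuclei against 34 in Leydig-like ones, and a ratio of 1.75. Cuts come in pairs, so the interval was taken from fragments, of which there were 107 and 18, with a ratio of 1.77 (1.07 to 3.11). Within 1 kb of the start the ratio was 1.67 (1.07 to 2.73), and it was 1.88 (1.04 to 3.74) without the nuclei over the doublet threshold. With no doublet removal the ratio at the peak was 1.33, below 1.5-fold.

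The *Tgfbr2* start was also the member start whose accessibility ran most nearly with RNA after *Tgfbr1*. It was most open in immune-like nuclei, at 68.2 fragments per 1000000 from only 7 fragments, then in endothelial-like nuclei at 50.1 from 14, and least open in Leydig-like nuclei at 18.4 (11.6 to 27.6) from 23. Germ-like nuclei, with the lowest *Tgfbr2* RNA, had 33.6 fragments per 1000000, close to the 30.7 of progenitor-like nuclei. Over the 11 classes, fragments and RNA had a Pearson r of 0.81 for *Tgfbr1* and 0.76 for *Tgfbr2*, from the same nuclei and with as few as 4 fragments in a class.

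For the other genes with large RNA differences between progenitor-like and Leydig-like nuclei, the start differed less than the RNA. *Smad3* had 276 and 83 fragments at its peak, a ratio of 0.993 (0.774 to 1.28), an interval below its RNA ratio of 2.33. *Tgfb2* had a ratio of 1.02 (0.668 to 1.60) from 99 and 29 fragments, below its RNA ratio of 2.93, in a peak that lay 125 to 940 bases after the start and so outside the promoter printed above. *Tgfb3* had a ratio of 1.08 (0.773 to 1.54) and *Tgfb1* one of 0.908 (0.649 to 1.29), both also below their RNA ratios. *Tgfbr1* (0.937), *Tgfbr3* (1.11) and *Smad2* (0.833) had intervals that held 1. At *Smad7*, fragments within 1 kb of the start had a ratio of 1.01 (0.789 to 1.299), and Sertoli-like nuclei had 80.8 fragments per 1000000 against 67.9 in Leydig-like nuclei, beside the 7.72-fold range of RNA. The r over the 11 classes was 0.57 for *Tgfb2*, 0.55 for *Tgfbr3*, 0.54 for *Tgfb1*, 0.32 for *Tgfb3*, 0.03 for *Smad3* and for *Smad7* and -0.05 for *Smad2*.

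**Figure D5:**
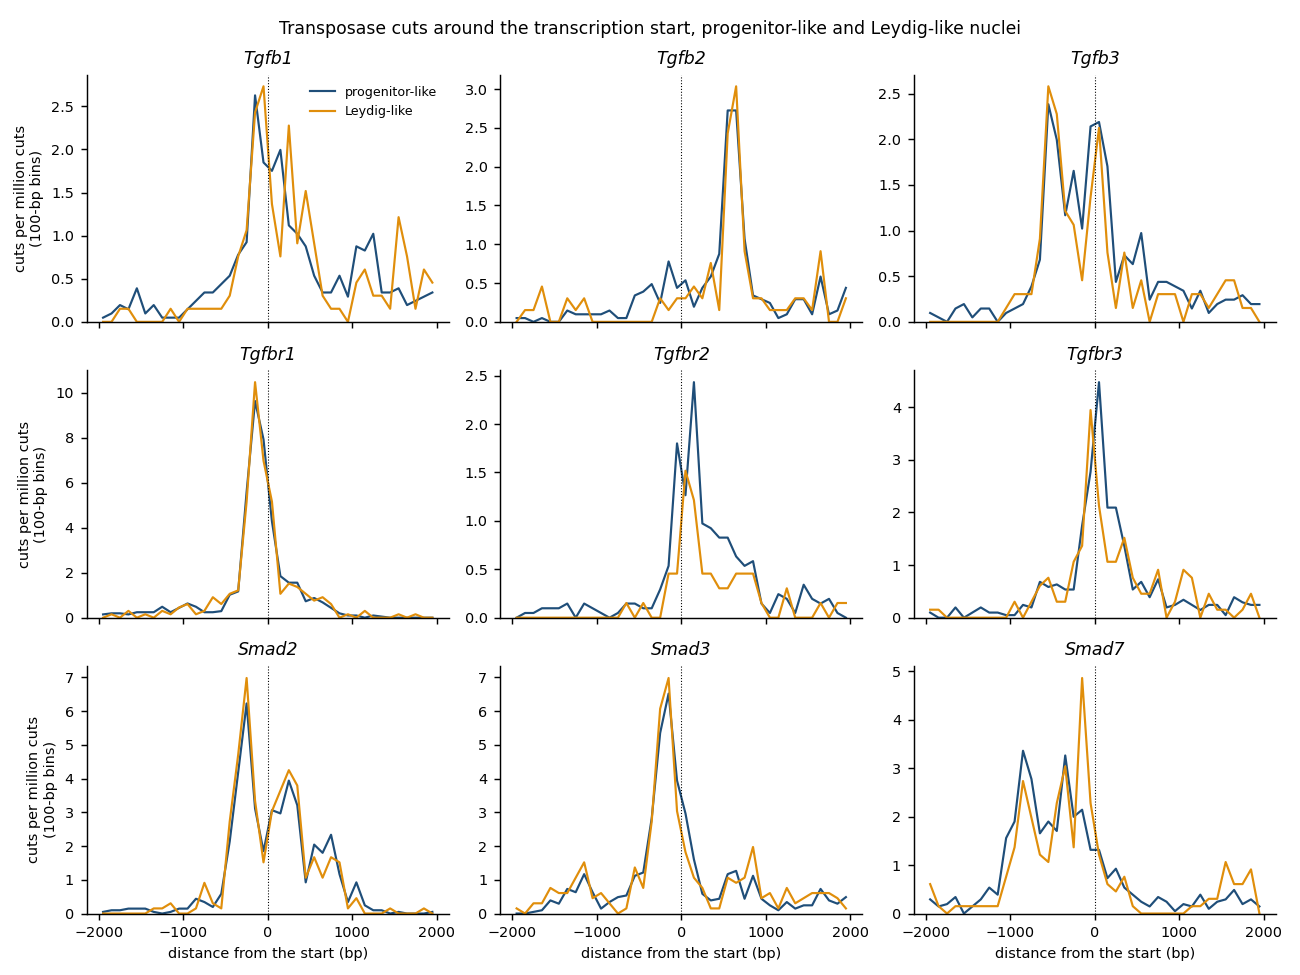
Transposase cuts per 1000000 cuts (y axis, from 0, 100-bp bins) by distance from the transcription start (x axis, up to 2000 bp each side) for the 9 members in progenitor-like and Leydig-like nuclei. The curves overlie each other at most starts, *Smad3* included, and the Leydig-like curve is lower at *Tgfbr2*.

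Within 50 kb of the 9 starts lay 79 peaks, promoter peaks included, of which 48 had the 50 cuts needed, and 13 of these were at least 2-fold more open in progenitor-like nuclei, against 20.3% of the 50814 peaks tested. In the other direction there were 0, against 7.65%, so that the share that differed either way was near the share over all peaks. *Smad3* had 5 of 12, *Smad7* 4 of 13, *Tgfb2* 2 of 6, and *Tgfb1* (1 of 7) and *Tgfbr1* (1 of 3) the rest. A pair of those with the most cuts is named, an order chosen after their values were seen. At *Smad7*, a peak 30931 bases after the start had 180 cuts in progenitor-like nuclei against 18 in Leydig-like ones, for a ratio of 2.99. At *Tgfb1*, an intergenic peak 20872 bases after the start (chr7:25707474-25708275) had 157 and 16 cuts, a ratio of 2.93. Whether either peak acts on the nearby gene was not tested.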

How the data were processed

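From testes at E14.5, 1 RNA and 1 ATAC library were made on the same nuclei. The authors ran Cell Ranger ARC 2.0.1 on the mm10 reference, and the deposited matrix holds raw counts (UMIs for genes, transposase cuts for peaks) with no normalization. The fragment list, per the file headers, gave fragments at starts. Of 9833 barcodes, 7667 passed the study's thresholds, without its blacklist filter, and 7197 remained after the 470 highest Scrublet scores were removed as doublets. Both numbers are above the number of nuclei the study states. Nuclei were clustered on both assays (Seurat 5.3.0, R 4.3.3, scanpy 1.11.5, resolution 0.3). Clusters were named by their highest marker score, with a margin of 0.05 set after the scores were seen. Levels are the summed counts of a class per 1000000 counts of that class (CPM). Intervals are exact Poisson for levels, conditional binomial for ratios and Clopper-Pearson for shares. Genes needed 100 UMIs over both classes, or 1000 over all. Named genes were all 9 members, the pathway genes past 2-fold, and the 3 genes most like each member. Gene models were GENCODE vM21. The members and lists were chosen with earlier results of these data known. Scripts were tested on simulated data. 1 distal peak is not reported here.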

Additional observations from a re-analysis of the deposited data

How the results depend on the processing

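The RNA ratio of every member kept its direction under each alternative. Promoter ratios near 1 did not, with ranges of 0.720 to 1.14 at *Tgfb1*, 0.778 to 1.25 at *Tgfb2*, 0.920 to 1.08 at *Tgfbr1* and 0.805 to 1.06 at *Smad3*. The count of members whose highest class was at least 2-fold above the next, 1 as reported, was 0 with no doublet removal, with clusters at resolution 0.6 and with at least 1000 genes and 1000 fragments per nucleus. It was 2 with Scrublet's automatic threshold, with classes from RNA alone, with the reported classes without the nuclei over that threshold, with the mean of per-nucleus CPM and with nuclei of at most 50000 UMIs, when *Tgfbr2* in endothelial-like or *Tgfbr1* in immune-like nuclei joined *Tgfb2*. With classes from ATAC alone the 1 member was *Smad7* in Sertoli-like nuclei, and with nuclei thinned to 2000 UMIs it was *Tgfbr1* in immune-like nuclei, so the *Tgfb2* call was lost in both. The count of members at least 2-fold apart between progenitor-like and Leydig-like nuclei, 5 as reported, was 3 with a minimum 5 times higher, since fewer genes were tested, and 4 to 6 in the other settings. *Tgfb2*, *Tgfbr2* and *Smad3* remained past 2-fold in all 14 settings, with ratios of 2.16 to 4.52, 2.07 to 3.90 and 2.01 to 3.10. The count of promoters past 1.5-fold, 1 as reported, was 0 with no doublet removal, where the *Tgfbr2* ratio was 1.33, and the cause was not tested. The pathway count ranged from 10 to 21. Where its class was present, the highest class was kept in 12 of 12 settings for *Tgfbr3* and *Smad7*, 11 of 12 for *Tgfb3* and 10 of 11 for *Tgfbr2*. It was kept in 9 of 12 for *Smad2*, 7 of 9 for *Smad3*, 9 of 9 for *Tgfb2* and 8 of 8 for *Tgfb1* and *Tgfbr1*. The settings left out for *Tgfb1* and *Tgfbr1* include those at the automatic doublet threshold, where the immune-like class had only 42 nuclei. Those left out for *Tgfb2* had no class named supporting-like. With no doublet removal and with classes from RNA alone, *Tgfb2* was highest in an unnamed cluster led by *Pax8*. Its mesonephric tubule score was above its supporting-like score there (1.89 against 1.77, and 2.12 against 1.85), so the name of this class is uncertain. Counting the cycling cluster as progenitor-like, leaving out nuclei over the automatic threshold from the reported classes, and counting fragments near the start were chosen after seeing the data. With 1 library per assay, embryos, dissection and handling cannot be told apart from cell state, and small classes limit every value in endothelial-like, supporting-like, pericyte-like and immune-like nuclei. No paired analysis was possible because each assay has 1 library and no result comes from a test.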
